A study of Mus musculus with 15 samples.

Results

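Adhesion molecules of synapses and axons were followed across sorted thalamic cells of mouse embryos. They were 37 listed genes of 9 families: neurexins, neuroligins, Lrrtm, Lrfn, Slitrk, contactins, Cntnap, Ncam and Cadm. A gene was represented by the array feature (transcript cluster) that named it alone, and by the feature with the highest mean where several did. In this way 36 of the 37 were measured, out of 22180 genes with such a feature. Cadm2 is named only. All 36 passed the filter on low values, a mean of at least 5.07 over the 15 arrays, which kept 16635 genes. Cntnap5b and Cntnap5c had means under that level in both E14.5 groups and Cntn3 in E14.5 green cells, so these 3 passed through their other groups.

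The cells came from embryos of the genotype Gbx2CreER-IRES-EGFP/+::R26lsl-tdTomato/+ on a c57/BL6 background. In every group 1 allele of Gbx2, a homeodomain gene of thalamic neurons, carried the tamoxifen-dependent Cre and EGFP, and the Rosa26 locus carried a tdTomato reporter that Cre switches on for good. Green cells therefore had EGFP from the Gbx2 locus, red cells had tdTomato from Cre that was active around the time of tamoxifen, and double-labelled cells had both. The 3 populations taken at E18.5 came from embryos whose mothers received 4 mg of tamoxifen at E9. At E14.5, red and green cells were sorted after 4 mg at E9.5, so the day of tamoxifen cannot be told apart from the stage. Each of the 5 groups had 3 arrays from biological replicates. No label says whether these were separate litters or pools, nor where the sorting gates lay, and p-values measure the spread between these arrays.

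Neurexins sit mainly on the presynaptic side and bind neuroligins and Lrrtm proteins across the synaptic cleft. Lrfn and Slitrk proteins are leucine-rich-repeat proteins of the postsynaptic side, and several of them bind receptor phosphatases of the LAR type on axons. Contactins are membrane-anchored immunoglobulin proteins of axons, some of which pair with Cntnap proteins, as contactin 2 does with the product of Cntnap2 beside the nodes of myelinated axons. Ncam and Cadm proteins are immunoglobulin adhesion molecules that bind their own kind or near relatives on the next cell. In the thalamus such molecules act while axons grow out to the cortex and while the first synapses form.

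Of the 8 members that passed a test between red and green cells, 3 had exactly 1 promoter window in RefSeq (GRCm38.p6) that lay at the start of the annotated gene. They are shown because they moved in both directions at E14.5: Lrfn5 and Ncam2 were higher in red cells, and Cntn2 was higher in green cells. Each line gives the 250 bases before the start, 5′ to 3′ on the gene's strand. Capitals mark CAGCTG, a form of the E-box to which helix-loop-helix factors bind.
Lrfn5: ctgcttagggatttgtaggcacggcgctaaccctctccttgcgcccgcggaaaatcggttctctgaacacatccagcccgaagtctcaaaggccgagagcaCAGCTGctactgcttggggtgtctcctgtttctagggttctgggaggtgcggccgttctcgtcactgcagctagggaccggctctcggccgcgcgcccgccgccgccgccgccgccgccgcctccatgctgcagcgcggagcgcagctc
Ncam2: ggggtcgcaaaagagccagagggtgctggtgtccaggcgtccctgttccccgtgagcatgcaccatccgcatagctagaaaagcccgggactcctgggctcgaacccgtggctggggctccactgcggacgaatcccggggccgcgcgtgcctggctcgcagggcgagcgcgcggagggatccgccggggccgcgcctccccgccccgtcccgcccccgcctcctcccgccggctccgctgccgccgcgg
Cntn2: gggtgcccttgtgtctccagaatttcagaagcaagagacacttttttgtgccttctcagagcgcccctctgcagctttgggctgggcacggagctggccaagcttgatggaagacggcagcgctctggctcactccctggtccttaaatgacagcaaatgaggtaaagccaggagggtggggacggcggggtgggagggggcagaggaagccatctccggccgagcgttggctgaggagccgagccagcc
The Lrfn5 window lies at chr12:61522917-61523166 on the + strand, that of Ncam2 at chr16:81200447-81200696 on the + strand and that of Cntn2 at chr1:132542941-132543190 on the - strand. GC content was 66.4% for Lrfn5, 75.2% for Ncam2 and 61.2% for Cntn2, against a median of 52.4% over the 32851 windows of the table. CpG dinucleotides numbered 27, 32 and 10 in that order, against a median of 6. CAGCTG was found once, in the Lrfn5 window, and 13% of all windows held it. TAATTA, the core of many homeodomain sites, and TATAAA were in none of the 3 windows, and 4.84% and 12.4% of all windows held them. The motifs were searched on both strands, and the single match overlapped no other. These matches describe letters in the windows and say nothing of binding in these cells.

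Values are log2 signals as deposited, in which 1 unit is a doubling, and no detection calls were used. Levels of different genes are not compared, because each gene has its own probes. The mean of all values was 6.17 to 6.19 in the E18.5 arrays and 5.63 to 5.65 in the E14.5 arrays. Comparisons between stages therefore used values centred on each array's median. Tcf7l2, a transcription factor of the thalamus, had group means of 11.55 to 12.00, and Tubb3, a tubulin of neurons, 11.26 to 12.01. The other genes listed for thalamic neurons had group means from 6.25 (Rora in E14.5 green cells) to 10.43 (Prox1 in E18.5 green cells). Sox2, from the progenitor list, had group means of 9.97 to 10.70. These levels do not by themselves name the cells. Differences were tested with limma over 16635 genes, and a gene was called at an adjusted p under 0.05. A 95% interval for a difference within a stage had a median half-width of 0.40 over the 36 members.

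E18.5 red replicate 1 and E18.5 double-labelled replicate 1 stood apart, and they are called the narrow-range arrays here. Their values spread less (SD 1.34 and 1.31) than those of the other E18.5 arrays (1.44 to 1.51). The members were mostly low in them: 22 of 36 were the lowest of their group in red replicate 1 and 30 of 36 in double-labelled replicate 1. All 4 Lrrtm genes were lowest in both arrays. Of 6 Slitrk genes, 5 were lowest in the red array and 6 in the double-labelled one. The share of all tested genes that was lowest in these arrays was not counted, so these counts do not set the members apart. The median Slitrk gene lay 0.65 below its group mates in the red array and 1.21 below them in the double-labelled array. Slitrk6 was 6.32 in red replicate 1, against 9.38 and 9.11 in its group mates. Slc17a6, the vesicular glutamate transporter of thalamic neurons, was also low, at 9.38 in red replicate 1 and 9.55 in double-labelled replicate 1, against 10.45 to 10.50 in the other red and double-labelled arrays. Values at E18.5 include these arrays unless a sentence says that they were left out. Leaving them out turned the sign of 38 of the 252 member differences (36 members in 7 comparisons), 30 of them in the 3 comparisons at E18.5, and none of the 38 was called with or without these arrays.

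**Figure D1:**
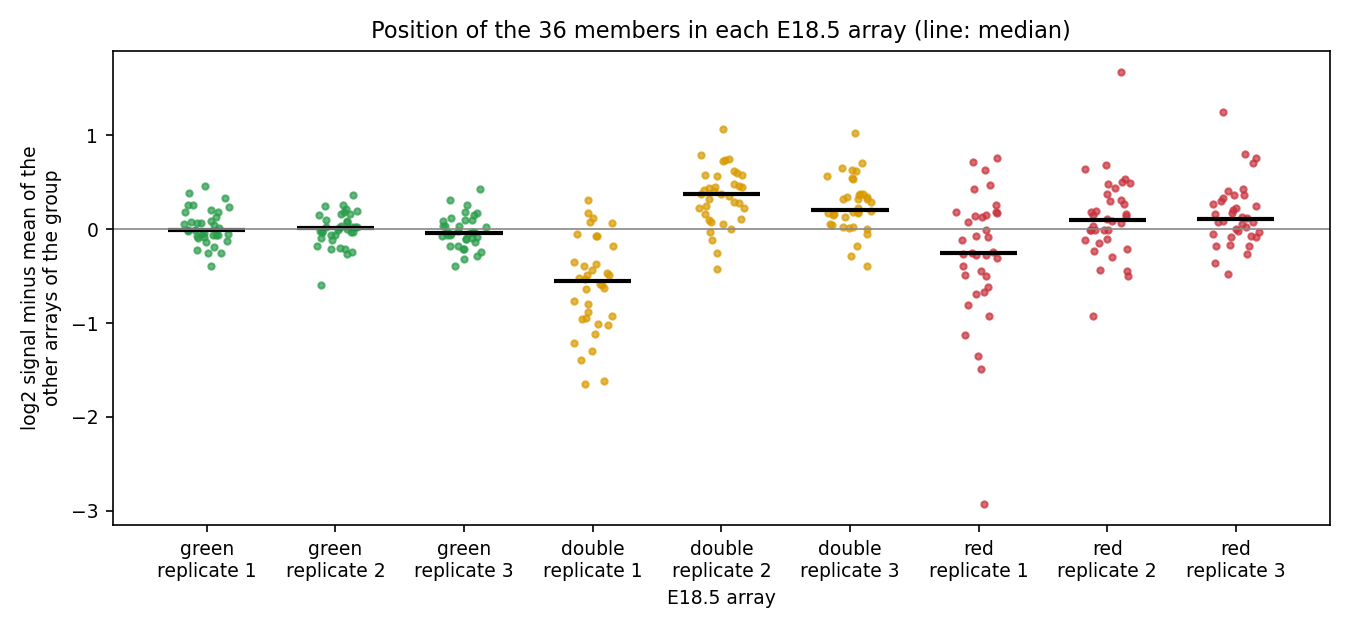
Each point is 1 of the 36 members in 1 E18.5 array, plotted as its log2 signal minus the mean of the other 2 arrays of its group, and the black line is the median. The medians of red replicate 1 and double-labelled replicate 1 lie at -0.25 and -0.56, and the lowest point, Slitrk6 in red replicate 1, at -2.93.

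At E14.5, red cells had higher signals of several synaptic and axonal adhesion genes than green cells. Lrfn5, Ncam2, Nrxn3, Cntn4, Cntnap4 and Cntnap2 were called higher in red cells, and Cntn2 was called lower. These 7 calls among 36 members compare with 3.52% of all tested genes called in either direction. The median member lay 0.23 higher in red cells and 29 of 36 lay above 0, while the median of all genes was 0.00. In sorted populations such as these, a smaller share of cells with a transcript and less transcript per cell cannot be told apart.

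On the neurexin side, Nrxn3 was 8.20, 7.90 and 7.52 in the E14.5 red arrays and 6.77, 6.36 and 6.19 in the green arrays. All red values lay above all green values. The difference was 1.43 (SE 0.20), a 2.70-fold higher signal in red cells (adjusted p = 0.00118). Nrxn2 differed by 0.31 and was not called. Of their partners across the cleft, none of the 3 neuroligins and none of the 4 Lrrtm genes was called, with differences from -0.03 to 0.22 and from -0.23 to 0.23.

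Of the postsynaptic leucine-rich-repeat genes, Lrfn5, which binds LAR-type phosphatases, was 7.34, 6.94 and 7.07 in E14.5 red cells and 5.74, 5.12 and 5.14 in green cells. The green values were close to 5.07, the mean level under which genes were left out of the tests. Red cells were 3.44-fold higher (log2 difference 1.78, SE 0.19, adjusted p = 0.000127). The other 4 Lrfn genes differed by 0.28 or less, and none was called. None of the 6 Slitrk genes was called either. Slitrk6, which is needed in the inner ear and eye, was the most variable of these, at 7.87, 7.96 and 8.71 in red and 7.89, 7.08 and 7.40 in green arrays, and the groups overlapped.

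Among the axonal immunoglobulin genes, Ncam2, known from olfactory axons, was 8.19, 8.00 and 7.72 in E14.5 red cells and 6.70, 5.90 and 5.74 in green cells. It was 3.62-fold higher in red cells (log2 difference 1.86, SE 0.23, adjusted p = 0.000315), the largest difference of the 36. Its paralogue Ncam1 was high in every array (9.61 to 10.23 at E14.5), and its difference of 0.41 was not called (adjusted p = 0.375). Cntn4, an axonal contactin, was 6.83, 6.83 and 6.86 in red arrays and 5.81, 5.06 and 5.27 in green arrays. The red arrays lay within 0.03 of each other and above all green arrays, and the difference was 1.46 (SE 0.26, 2.75-fold, adjusted p = 0.00581). Cntn6, the next gene to Cntn4 on chromosome 6, was 6.86, 6.59 and 6.82 in red and 6.02, 5.01 and 5.55 in green arrays. Its difference of 1.23 was not called (adjusted p = 0.0896). All its red values lay above all its green values, and it was called with the same difference without the narrow-range E18.5 arrays, which enter the shared estimate of the spread (adjusted p = 0.00165), as well as with the replicate block, with quantile normalization and with the E14.5 arrays alone.

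Cntn2 went the other way. This gene, whose product marks outgrowing axons, was 6.43, 6.64 and 6.56 in E14.5 red cells and 7.03, 7.11 and 7.45 in green cells. The groups did not overlap, and red cells were 1.57-fold lower (log2 difference -0.65, SE 0.12, adjusted p = 0.00834). The call was lost without red replicate 1 (adjusted p = 0.0513) and without green replicate 3 (adjusted p = 0.0552).

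Of the Cntnap genes, Cntnap4, known from interneuron synapses, was 6.80, 6.99 and 6.75 in E14.5 red and 5.97, 5.64 and 5.71 in green arrays. This was a 2.11-fold higher signal in red cells (log2 difference 1.08, SE 0.19, adjusted p = 0.00443). Cntnap2, the axonal partner of contactin 2, was 7.16, 7.13 and 7.10 in red and 6.56, 5.99 and 6.26 in green arrays. It was thus higher in the cells where Cntn2 was lower, by 0.86 (SE 0.21, 1.81-fold, adjusted p = 0.0360). Its call was kept in only 1 of the 6 fits that each left out an E14.5 array, the one without green replicate 1, and adjusted p reached 0.198 without green replicate 2. Cntnap1, Cntnap5a, Cntnap5b and Cntnap5c differed by 0.02 to 0.25 and were not called. The differences of the Cadm genes with a value were 0.40 for Cadm1 and 0.53 for Cadm3, and neither was called. Cadm3 was called in the same 4 alternatives as Cntn6, with adjusted p = 0.00522 without the narrow-range arrays. Ncam1 was called in 2 of them, without the narrow-range arrays (adjusted p = 0.0131) and with the E14.5 arrays alone. With those arrays left out 8.62% of all genes were called at E14.5.

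**Figure D2:**
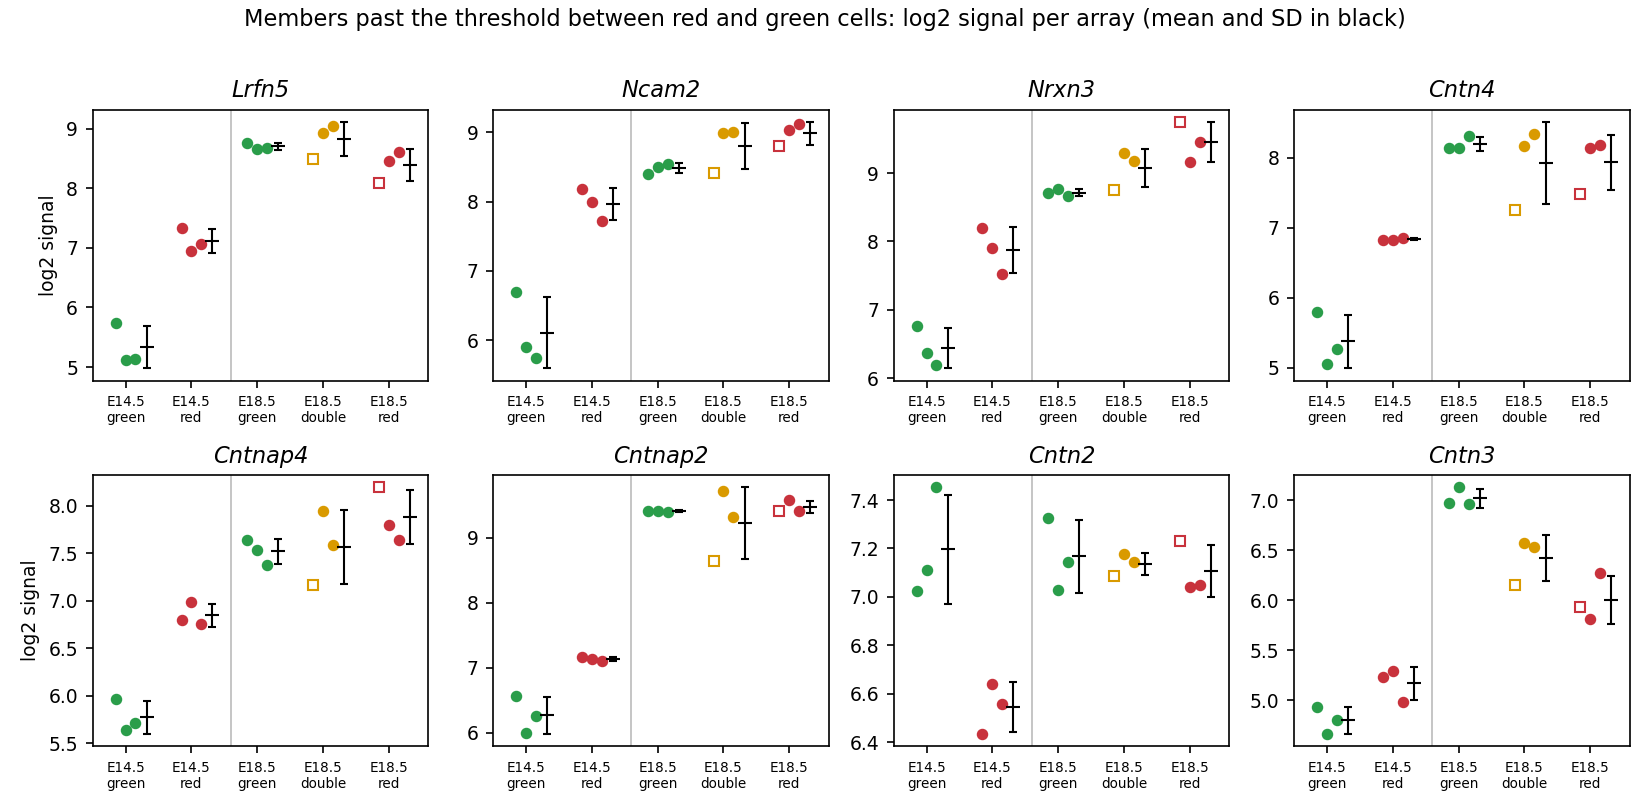
The log2 signal of each array is shown for the 8 members called between red and green cells at a stage, with the mean and SD of each group's 3 arrays in black beside the points and the narrow-range arrays as open squares. At E14.5 the red points lie above the green points in the panels of Lrfn5, Ncam2, Nrxn3, Cntn4, Cntnap4, Cntnap2 and Cntn3, and below them for Cntn2; Cntn3 was called at E18.5, where red points lie below green points.

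Other adhesion genes also differed at E14.5. Of 43 partner genes from the same pathways with a feature of their own, 8 were called higher and 3 lower in red cells. Dlg2, a scaffold of the postsynaptic density, was higher by 0.79, and Apba1, a presynaptic adaptor that binds neurexins, by 0.62. The teneurins Tenm4 and Tenm2, large proteins that act in matching axons to targets, were higher by 1.28 and 0.87. Their adjusted p values lay between 0.00227 and 0.0133. Of the LAR-type phosphatases, Ptprd was called 1.93-fold higher and Ptprs 1.53-fold lower in red cells.

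Markers of dividing cells differed between red and green cells too. At E14.5, 3 of the 4 cell cycle genes with a value were called lower in red cells, and the mean level of the list was 5.03 to 5.11 in red and 5.98 to 6.30 in green arrays. Top2a, a gene of dividing cells, was lower by 1.89. Of 6 progenitor genes 1 was called lower, Nes (-0.54), a filament gene, and none higher. Vim and Fabp7 differed by -0.45 and -1.40, and Sox2, Pax6 and Hes5 by 0.20, 0.08 and 0.05, without a call. Of 5 general neuron markers none was called, and their median difference was 0.09. Gad2, an enzyme of GABAergic neurons, was 0.82 higher in red cells, and Slc1a3, a glutamate transporter of astrocytes and radial glia, 1.01 higher. Of 5 tested GABAergic and prethalamic genes 1 was called, with a list median of 0.11, and of 6 astrocyte genes 1, with 0.05. Rora, a nuclear receptor of thalamic neurons, was 1.06 higher in red cells, while the thalamic factors Lhx2 and Lhx9 were lower. Of 6 thalamic genes 1 was called higher and 2 lower. Gbx2, whose locus drives the EGFP used in the sort, was 7.30 in red and 8.07 in green cells on average without a call. The part of these markers in the adhesion results was not tested.

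**Figure D3:**
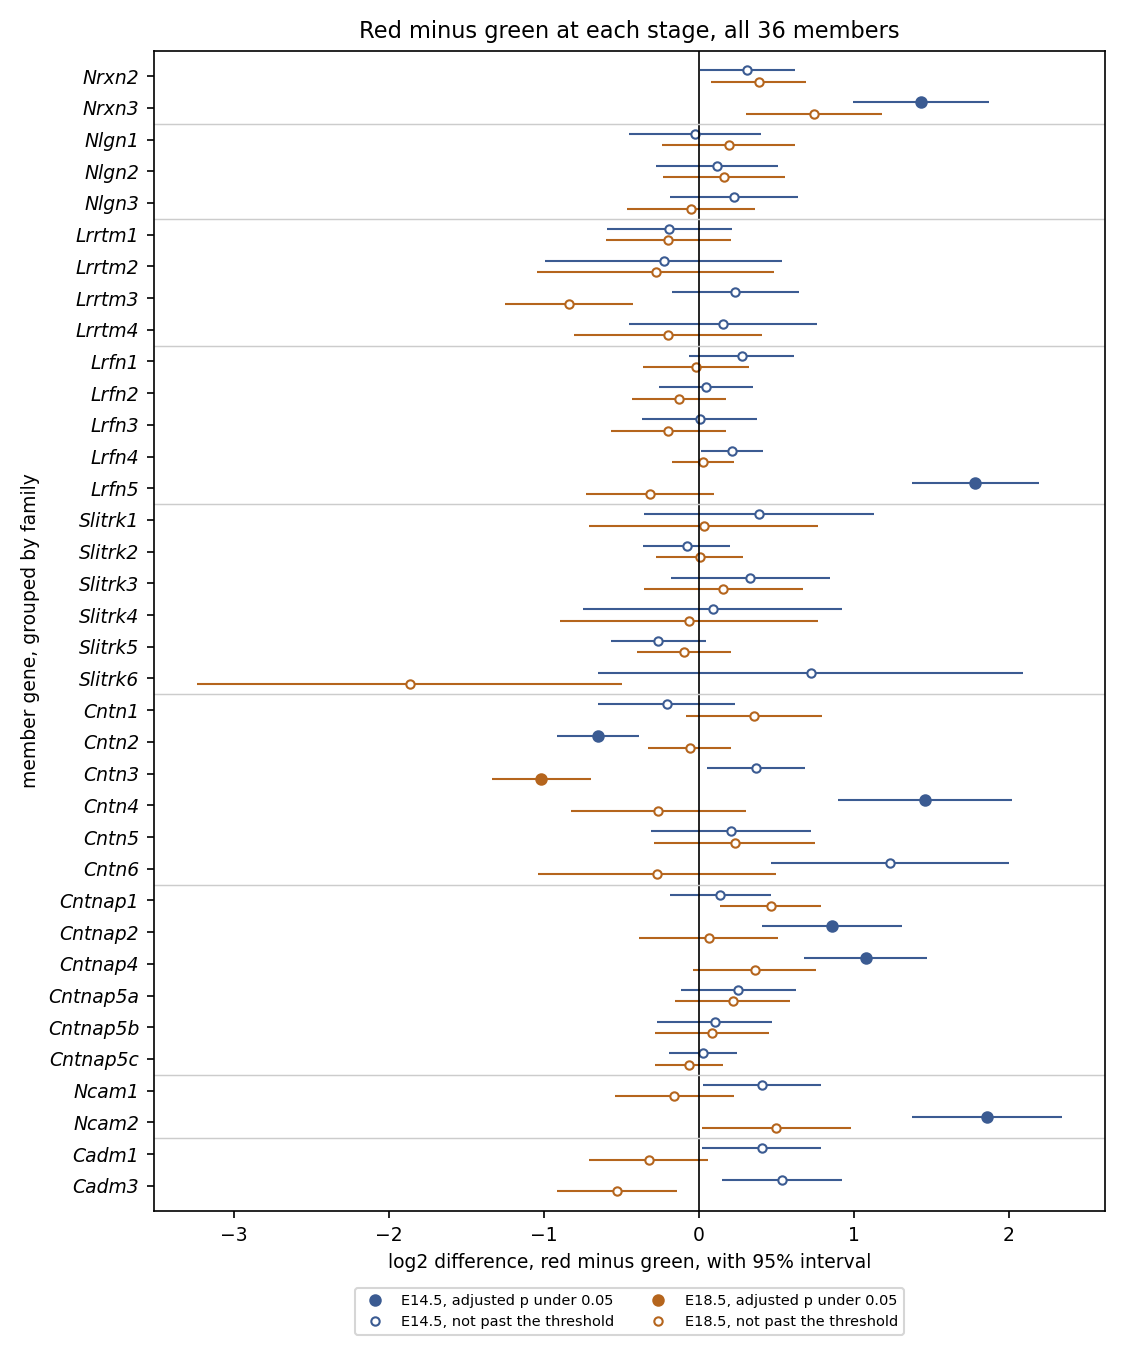
For each of the 36 members, grouped by family, the points show the log2 difference of red minus green cells at E14.5 (blue) and E18.5 (brown) with 95% intervals. Filled points are called and open points are not: 7 are filled at E14.5, and Cntn3 alone at E18.5, at -1.02.

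At E18.5 none of those 7 members was called between red and green cells. A different member was, 1 of 36, and 0.613% of all tested genes were called in either direction. The member was Cntn3, an axonal contactin, at 5.93, 5.81 and 6.28 in red and 6.98, 7.13 and 6.96 in green arrays. The groups were well separated, and red cells were 2.02-fold lower (log2 difference -1.02, SE 0.15, adjusted p = 0.00517). The call stood without the narrow-range arrays (difference -0.98, adjusted p = 0.00311) and in all 6 fits that left out 1 array. It was lost when the E18.5 arrays were fitted alone (adjusted p = 0.0915).

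Lrrtm3, a postsynaptic partner of neurexins, came next at E18.5, with 8.54, 9.05 and 9.02 in red and 9.76, 9.82 and 9.55 in green arrays. All red values lay below all green values, and the difference of -0.84 missed the threshold (adjusted p = 0.0733). Without the narrow-range arrays Lrrtm3 was called with a smaller difference (-0.67, adjusted p = 0.00473), when 1.28% of all genes were called and Cntn3 and Lrrtm3 were the 2 members among them. Nrxn3 was still on the red side, at 9.75, 9.17 and 9.46 against 8.71, 8.77 and 8.66, but its difference of 0.74 was not called (adjusted p = 0.180), nor was that of 0.60 without the narrow-range arrays (adjusted p = 0.191). Slitrk6 had the widest difference, -1.87 (SE 0.64, adjusted p = 0.327), and it came to -0.89 (adjusted p = 0.133) without the narrow-range arrays. Its green values were 9.99, 10.30 and 10.12. In all, 8 of 36 members had an unadjusted p under 0.05, as did 10.0% of all tested genes. Their differences pointed both ways: Nrxn2, Nrxn3, Cntnap1 and Ncam2 were above 0, and Cntn3, Lrrtm3, Cadm3 and Slitrk6 below.

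Of the partner genes at E18.5, none was called higher in red cells and 2 were called lower. Tnr, the matrix protein tenascin-R that binds contactins, was 2.28-fold lower in red cells (log2 difference -1.19, adjusted p = 0.00687), and Mdga1, which binds neuroligins and blocks their pairing with neurexins, was 1.48-fold lower (adjusted p = 0.0411). Tnr was 2.46-fold lower (adjusted p = 0.000988) and Mdga1 1.53-fold lower (adjusted p = 0.0143) without the narrow-range arrays, when 4 partners were called lower and 1 higher. Gbx2 was lower by 2.07 and Lhx9 by 0.99 in red cells. Of 6 thalamic genes 2 were called lower and none higher, and Rora averaged 7.60 in red and 6.94 in green cells. Sp9, a factor of GABAergic lineages, was 0.88 higher in red cells. Of 5 tested GABAergic and prethalamic genes 1 was called higher and none lower, with a median difference of 0.44. Dlx5 of this list averaged 5.86 in red and 6.07 in green cells. The GABAergic and prethalamic list had a level of 6.34 to 6.57 in red and 6.05 to 6.30 in green arrays. The part of these markers in the results at E18.5 was not tested.

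At E18.5 double-labelled cells were set against each other population. The comparisons of double-labelled and of red cells with green cells share the green arrays. No member was called between double-labelled and green cells, where 6 genes or 0.0361% of those tested were called, and 6 members and 949 genes had an unadjusted p under 0.05. None was called between double-labelled and red cells, where 15 genes or 0.0902% were called, and 6 members and 752 genes had an unadjusted p under 0.05. Intervals this wide leave room for differences: the median half-width was the 0.40 given above.

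Cntnap5b came nearest to a call in both comparisons. It belongs to a mouse group of 3 Cntnap5 genes, which encode neurexin-like proteins of neurons. It was 7.95, 7.99 and 8.03 in double-labelled arrays, 6.97, 6.76 and 7.04 in green arrays and 7.43, 6.91 and 6.69 in red arrays. The 3 double-labelled values lay within 0.08 of each other and above all 6 others. The difference was 1.07 from green (SE 0.17, 2.10-fold, adjusted p = 0.0562) and 0.98 from red (SE 0.17, 1.98-fold, adjusted p = 0.0571).

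Whether Cntnap5b was called changed with the setting. Red and double-labelled arrays of the same number were taken as pairs. A replicate block by that number covered the green arrays too. With it Cntnap5b was called against red cells (adjusted p = 0.0247) and against green cells (adjusted p = 0.0306). Against red cells 0.192% of all genes were then called. Without the narrow-range arrays it was called against red cells (1.21, adjusted p = 0.00473, with 0.234% of all genes called) and against green cells (1.09, adjusted p = 0.00965, with 0.210% called). Without red replicate 1 alone the difference from red was 1.19 (adjusted p = 0.00441). With the E18.5 arrays fitted alone, adjusted p was 0.376 against red and 0.503 against green. With quantile normalization it was 0.132 against red and 0.131 against green, again without a call.

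Cntnap5a was 8.51, 8.73 and 8.99 in double-labelled, 8.08, 7.97 and 7.93 in green and 7.75, 8.50 and 8.38 in red arrays. Its differences of 0.75 from green (adjusted p = 0.261) and 0.53 from red (adjusted p = 0.699) were not called. All double-labelled values lay above all values of both other groups, but the lowest, 8.51, only just above the highest red value, 8.50. The difference from green was called without the narrow-range arrays (0.87, adjusted p = 0.00965), and that from red was then 0.42 (adjusted p = 0.235). Cntnap5c stayed near 6 in every E18.5 array (5.92 to 6.08). Whether probes of one Cntnap5 gene also bind transcripts of another was not tested. Cntn3 took a middle place, at 6.16, 6.57 and 6.53 in double-labelled arrays, below all green arrays by 0.60 on average (adjusted p = 0.322) and overlapping the red ones, from which it differed by 0.42 (adjusted p = 0.812). These differences were -0.47 (adjusted p = 0.329) and 0.51 (adjusted p = 0.259) without the narrow-range arrays. No partner gene was called in either comparison with all arrays, and 1, Tnr, was called higher in double-labelled than in red cells without the narrow-range arrays (0.97, adjusted p = 0.0382). Of the markers Gbx2 was called, 1.97 higher in double-labelled than in red cells.

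**Figure D4:**
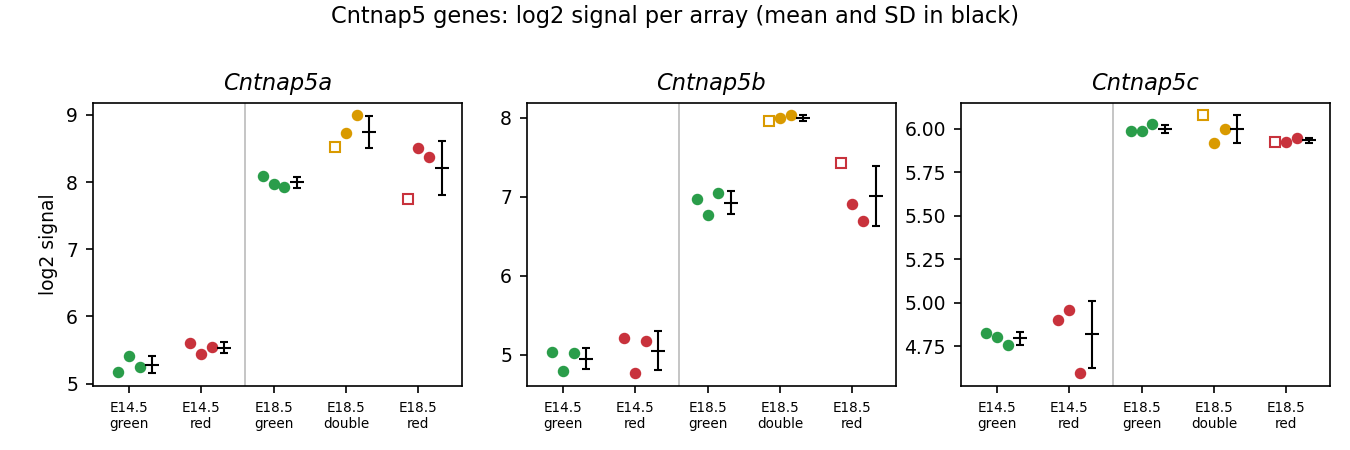
The log2 signals of Cntnap5a, Cntnap5b and Cntnap5c are shown in each array, with the mean and SD of 3 arrays in black and the narrow-range arrays as open squares; the vertical scales differ. The double-labelled values of Cntnap5b (7.95 to 8.03) lie above all other values of that gene, those of Cntnap5a lie just above the highest red value, and Cntnap5c lies between 5.92 and 6.08 in all E18.5 arrays.

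The red-green difference itself changed between stages for 3 members, tested as E18.5 difference minus E14.5 difference. All 3 fell, and 1.05% of all tested genes were called in either direction. Lrfn5 went from 1.78 at E14.5 to -0.32 at E18.5, a change of -2.10 (SE 0.27, adjusted p = 0.00123). At E18.5 its values were 8.09, 8.46 and 8.61 in red and 8.76, 8.66 and 8.68 in green arrays, with all red values then lying just below all green values. Cntn3 went from 0.37 to -1.02, a change of -1.39 (SE 0.21, adjusted p = 0.00451). Its E14.5 values were low in both colours, 5.23, 5.29 and 4.98 in red and 4.93, 4.66 and 4.80 in green, around the level of 5.07 used as the filter.

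Cntn4 went from 1.46 to -0.26, a change of -1.72 (SE 0.37, adjusted p = 0.0403). At E18.5 it was 7.48, 8.13 and 8.18 in red and 8.13, 8.13 and 8.32 in green arrays. The call for Cntn4 was lost in 11 of the 12 fits that left out 1 array, all but the one without E14.5 green replicate 1, with adjusted p up to 0.136. Lrfn5 and Cntn3 were called in all 12. Ncam2 (-1.36, adjusted p = 0.0588), Cadm3 (-1.06, adjusted p = 0.0649) and Lrrtm3 (-1.07, adjusted p = 0.0817) came next without a call. Of the 36 members, 27 had a change below 0, with a median of -0.20 against -0.01 for all genes. Without the narrow-range arrays 9 members were called, 8 of them lower, and 2.92% of all genes; the changes of Lrfn5, Cntn3 and Cntn4 were then -1.95, -1.35 and -1.50, and the 6 further members were Lrrtm3, Slitrk6, Cntnap4, Ncam2 and Cadm3, which fell, and Cntn1, which rose.

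Cntn3, Cntn6 and Cntn4 lie in this order on chromosome 6 in GRCm38.p6, with Chl1, an adhesion gene of the L1 family, as the only protein-coding gene between Cntn3 and Cntn6 and none between Cntn6 and Cntn4. Chl1 had no call in either test: it differed by -0.18 between red and green cells at E14.5, and this difference changed by -0.10 between stages. The change was -1.50 for Cntn6 and was not called (adjusted p = 0.255). Of the partners, the change of the red-green difference was called for Tnr (-1.49, adjusted p = 0.0116) and Dlg2 (-0.92, adjusted p = 0.0196). Cell cycle genes moved the other way: the change was 2.05 for Top2a, 1.61 for Mki67 and 1.18 for Cdk1, all called. Their part in the adhesion results was not tested.

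From E14.5 to E18.5 most of these adhesion genes rose in green cells, and 18 of the 36 rose in red cells, relative to the other genes of the array. In green cells 28 members rose and 1 fell, while 13.0% of all genes rose and 20.1% fell. In red cells 18 rose and none fell, while 9.90% of all genes rose and 13.3% fell. Both counts of rises hold Cntnap5b and Cntnap5c, and that of green cells holds Cntn3. These passed the filter on low values only through their other groups, as given above. The median member rose by 1.04 in green and 0.48 in red cells after centring, against -0.09 and -0.05 for all genes. Red and green cells share no array, but the counts are not independent. Deviations from group means of same-numbered E18.5 red and green arrays correlated at 0.46, 0.41 and 0.06 for replicates 1, 2 and 3. Both tests also share 1 estimate of the spread. Without the narrow-range arrays 24 members rose and 1, Nlgn3, fell in red cells (-0.37, adjusted p = 0.00559), and 16.4% of all genes rose and 21.3% fell. In green cells, whose values do not change, 31 rose and 1 fell in that fit, with 18.8% and 30.1% of all genes.

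Before centring, E18.5 arrays were higher as a whole: the median gene was 0.60 higher in red and 0.61 higher in green cells. Centring took off the shift of the array medians, 0.65 in red and 0.70 in green cells, and the changes given here are relative to it. On the values as deposited 32 members were called higher in red and 35 in green cells, as were 71.3% and 71.0% of all genes. Array values themselves are as deposited.

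Both measured neurexins and 1 of 3 neuroligins rose in both colours. Nrxn3 rose by 1.58 in green and 0.93 in red cells, Nrxn2 by 0.48 and 0.60, and Nlgn1, the neuroligin of excitatory synapses, by 0.83 and 1.09. Nlgn2, the neuroligin of inhibitory synapses, and Nlgn3 were not called in either colour, at -0.09 and -0.09 in green and -0.01 and -0.32 in red. Of the 4 Lrrtm genes, Lrrtm1, Lrrtm3 and Lrrtm4 rose in both colours and Lrrtm2 was called in neither (0.34 in green and 0.33 in red cells). Lrrtm2 was called in both without the narrow-range arrays, at 0.34 in green (adjusted p = 0.0253) and 0.78 in red cells (adjusted p = 0.000403).

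Lrrtm3 had one of the steepest rises. It was 6.51, 6.58 and 6.71 in red and 6.39, 6.43 and 6.28 in green arrays at E14.5, and 8.54 to 9.05 and 9.55 to 9.82 at E18.5. This is a relative rise of 6.26-fold in green cells (log2 2.65, SE 0.18, adjusted p = 9.86e-08) and 3.07-fold in red cells (log2 1.62, SE 0.18, adjusted p = 2.60e-05).

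Lrfn5 rose 6.38-fold in green cells (log2 2.67, SE 0.18, adjusted p = 1.36e-07) and 1.54-fold in red cells (log2 0.62, SE 0.18, adjusted p = 0.0251). It thus started higher in red cells and rose further in green cells. All 5 Lrfn genes rose in green cells and Lrfn1, Lrfn4 and Lrfn5 in red cells. Slitrk2 and Slitrk3 rose in both colours, by 0.43 and 1.34 in green and 0.56 and 1.21 in red cells. Slitrk4 and Slitrk6 rose in green cells only by the threshold. With all arrays the difference between colours was not called for either (adjusted p = 0.290 for Slitrk6). Without the narrow-range arrays that of Slitrk6 was called (-1.61, adjusted p = 0.0202). Slitrk1 and Slitrk5 were called in neither colour. The narrow-range red array bears on this family: without the narrow-range arrays Slitrk4 was called in red cells at 1.41 (adjusted p = 9.63e-06), and Slitrk1 was called in both colours, at 0.35 in red (adjusted p = 0.0473) and 0.40 in green cells (adjusted p = 0.0114). The red change of Slitrk6 turned from -0.56 with all arrays to 0.41 without them, and neither was called. Of the Lrfn genes in red cells, Lrfn3 was called (0.52, adjusted p = 0.00594) and Lrfn1 was not (0.43, adjusted p = 0.0701) in that fit.

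Cntn1, the contactin of the paranodal junction, was 7.02, 6.84 and 7.12 in red and 7.07, 7.22 and 7.31 in green arrays at E14.5. At E18.5 it was 9.36, 9.66 and 9.68 in red and 9.25, 9.21 and 9.18 in green arrays. It rose 3.80-fold in red cells (log2 1.93, SE 0.19, adjusted p = 8.69e-06) and 2.49-fold in green cells. Cntn5 rose in both colours as well, by 1.43 in green and 1.50 in red cells. Cntn3, Cntn4 and Cntn6 rose in green cells, by 1.53, 2.12 and 2.14, and their changes in red cells were 0.19, 0.45 and 0.68 without a call. Cntn4 (0.67, adjusted p = 0.00693) and Cntn6 (1.05, adjusted p = 0.00255) were called higher in red cells too when the narrow-range arrays were left out, and Cntn3 was not (0.22, adjusted p = 0.266).

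Cntn2 was the only one of the 36 members to be called lower between stages with all 15 arrays. In green cells it was 7.33, 7.03 and 7.15 at E18.5, beside the E14.5 values given above. The deposited signal was therefore level (difference -0.03) while the other genes of the array shifted up, and the relative change was -0.73 (SE 0.13, 1.65-fold lower, adjusted p = 0.000510). In red cells, at 7.23, 7.04 and 7.05, the relative change of -0.09 was not called. On the values as deposited the fall in green cells was not called (adjusted p = 0.832).

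Cntnap2 rose in both colours. It was 9.42, 9.58 and 9.42 in red and 9.42, 9.42 and 9.39 in green arrays at E18.5, from 7.10 to 7.16 and 5.99 to 6.56 at E14.5. The relative rise was 5.43-fold in green cells (log2 2.44, SE 0.19, adjusted p = 4.25e-07) and 3.23-fold in red cells (log2 1.69, SE 0.19, adjusted p = 3.43e-05). At E18.5 the red-green difference of Cntnap2 was 0.06 (95% interval -0.39 to 0.51). Cntnap5a was 5.61, 5.44 and 5.55 in red and 5.18, 5.42 and 5.24 in green arrays at E14.5. It rose by 2.03 in red cells (SE 0.17, 4.07-fold, adjusted p = 2.32e-06) and 2.02 in green cells, with the E18.5 values given above. Cntnap5b and Cntnap5c, which passed the filter through their E18.5 groups, rose in both colours. By the threshold Cntnap1 rose in red cells (0.72) and Cntnap4 in green cells (1.05). With all arrays the differences between colours were not called for Cntnap1 or Cntnap4. Without the narrow-range arrays that of Cntnap4 was called (-0.87, adjusted p = 0.0222).

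Of the Ncam and Cadm genes, 3 of 4 were called in green cells and none in red cells. Ncam2 rose 3.20-fold there (log2 1.68, adjusted p = 4.60e-05), while its red change of 0.37 was not called (adjusted p = 0.256). Cadm1 and Cadm3 rose by 0.90 and 1.14 in green cells, and their red changes were 0.22 and 0.12 without a call. Ncam1 was called in neither colour. When the narrow-range arrays were left out, Cadm3 was called in red cells (0.33, adjusted p = 0.0310) and Ncam1 in green cells (0.28, adjusted p = 0.0312), so that all 4 were called in green and 1 in red cells. With all arrays the test of the difference between colours called none of the 4. Without the narrow-range arrays it called Ncam2 (-1.27, adjusted p = 0.0354) and Cadm3 (-0.86, adjusted p = 0.00952). Ncam2 reached 8.80, 9.03 and 9.12 in red and 8.40, 8.51 and 8.55 in green arrays at E18.5. The red values stayed above the green ones, by 0.50 on average, without a call (adjusted p = 0.483).

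**Figure D5:**
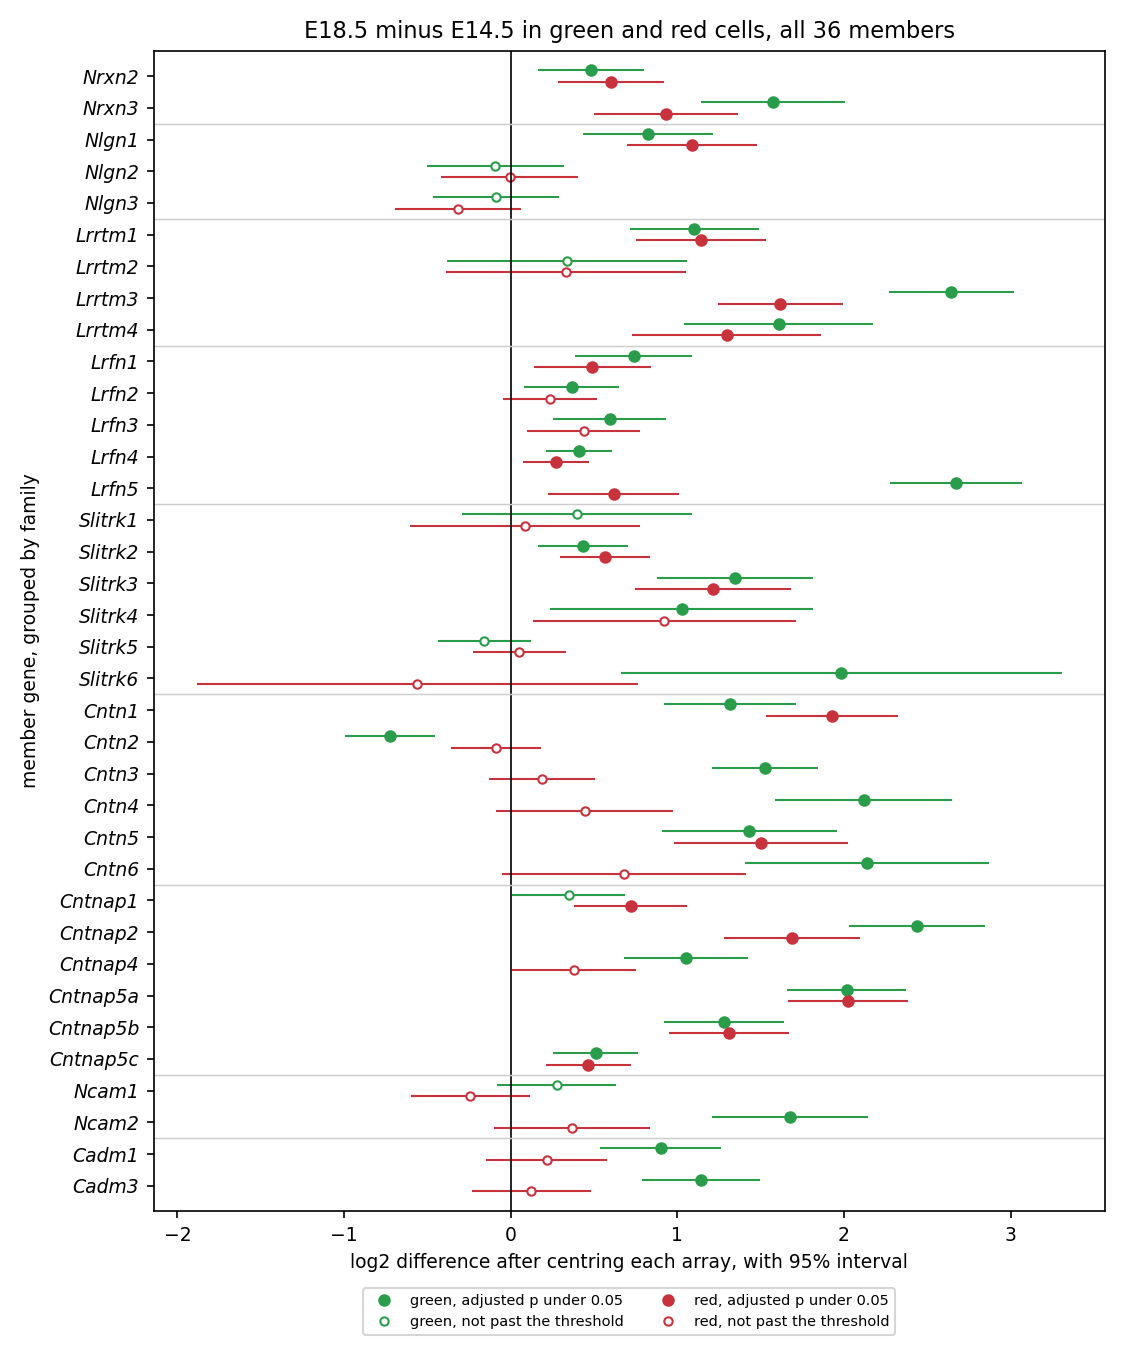
For each of the 36 members the points show the log2 difference of E18.5 minus E14.5 after centring each array, in green and red cells, with 95% intervals; filled points are called. In green cells 29 points are filled, all to the right of 0 but Cntn2 at -0.73, and in red cells 18 are filled, led by Cntnap5a at 2.03.

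Some calls between stages were lost when 1 array was left out, also where the size of the change was kept. In red cells the call of Lrfn1 was lost in all 6 fits that left out 1 array, that of Lrfn4 in all but the fit without E14.5 red replicate 2, and that of Lrfn5 in 4, the exceptions being those without E18.5 or E14.5 red replicate 1. The red calls of Nrxn2 and Cntnap5c were lost without E14.5 red replicate 1 (adjusted p = 0.0511) and replicate 3 (adjusted p = 0.0550). In green cells the call of Slitrk4 was lost in all 6 fits and that of Lrfn2 in all but the fit without E18.5 green replicate 3. Slitrk6 kept its green call without E18.5 or E14.5 green replicate 1, and Nrxn2 without E18.5 green replicate 3 or E14.5 green replicate 1. Slitrk2 lost it without E18.5 green replicate 2 or E14.5 green replicate 1 and Lrfn3 without E18.5 green replicate 3, with adjusted p up to 0.0702 and 0.0572. The other 13 red and 23 green calls stood in all 6 fits.

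Of the 43 partner genes, 17 rose and 6 fell between stages in green cells, where 13.0% of all genes rose and 20.1% fell. In red cells 10 rose and 7 fell, where 9.90% of all genes rose and 13.3% fell. Apba1 rose by 1.95 in green and 1.48 in red cells and Dlg2 by 1.61 and 0.74. Cbln1, a secreted ligand that bridges neurexins to glutamate receptors, and Dlg4, the main scaffold of excitatory synapses, rose by 1.73 and 0.83 in red cells. In green cells Tenm1 rose by 2.61 and Ntng2, a membrane-anchored netrin relative, fell by 1.38. Of 4 cell cycle genes, 3 were called lower at E18.5 in green cells and 1 in red cells. The progenitor list had 5 of 6 genes called lower in green cells, and 2 lower and 1 higher in red cells. The part of these markers in the rise of the adhesion genes was not tested.

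For 2 members a second feature named the gene alone. The second feature of Nrxn2 gave a red-green difference of 0.35 at E14.5 and 0.16 at E18.5, beside 0.31 and 0.38 for the feature used. The second feature of Lrrtm4 had a mean of 4.79, below the filter. A feature named for both Ncam1 and Gm11149 was left out. It changed by -1.13 in red and -0.82 in green cells between stages after the same centring, unlike the Ncam1 feature used (-0.24 and 0.28).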

How the data were processed

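Total RNA of FACS-sorted embryonic thalamic cells was measured on 15 Affymetrix arrays, 3 for each of 5 groups. Per the labels' protocols, RNA was extracted with an RNeasy mini kit and amplified from 10 ng with a Nugen kit (Ovation Pico WTA System V2). The deposited values are log2 signals per transcript cluster (4.15 to 13.2), made with Affymetrix Expression Console per the submitters' processing notes; its version and algorithm and a genome build are not given in the sources used here. The number of arrays limits the precision.

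Of 33794 transcript clusters, 23521 named 1 gene, 1814 several and 8459 none. The cluster with the highest mean stood for a gene (22180 genes). The tests covered 16635 genes after removal of the 25% whose mean was lowest (under 5.07). limma 3.58.1 (R 4.3.3) fitted 1 mean per group over the 15 arrays, with 10 residual degrees of freedom. Moderated two-sided p-values were corrected over 16635 genes (Benjamini-Hochberg) and called under 0.05. Comparisons between stages used values centred on each array's median of tested genes. The fitting steps were also run on simulated arrays with independent noise. These held no narrow-range arrays, no paired arrays and no overall shift between stages, so they do not bear on those features. Figures were drawn with matplotlib 3.10.9.

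The members and lists were chosen with earlier results of these data known. Every member was accounted for by family. Array values were given for members past the threshold within a stage or in the difference between stages, for the 3 smallest p within a stage, and for the 3 largest rises and falls between stages; up to 4 partner genes were named per comparison. Slitrk6, Cntn6, Ptprd, Ptprs, Chl1 and the markers named were chosen after their values were seen. Symbols of the 36 members matched RefSeq GRCm38.p6.

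Deviations from group means of same-numbered arrays correlated at 0.67, 0.50 and 0.49 between E18.5 red and double-labelled cells, and the number was taken to pair them. The highest correlations of these double-labelled arrays with a red array of another number were -0.47, 0.43 and 0.23. Replicate 1 of both groups is a narrow-range array, which enters these correlations. In the other pairs of groups at least 1 correlation of same-numbered arrays was under 0.1. The main fits held no replicate block. Alternatives were the replicate block, quantile normalization, other filters, every cluster tested, the same stage alone, no centring, leaving out the narrow-range arrays and leaving out each array. The replicate block used the number in every group of a stage, green and E14.5 arrays included.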

Additional observations from a re-analysis of the deposited data

Results flagged for a closer look

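The red-green difference was not the same at E14.5 and E18.5 for 3 members, by a test of the difference between stages with limma over 16635 genes. It changed by -2.10 for Lrfn5 (adjusted p = 0.00123), by -1.39 for Cntn3 (adjusted p = 0.00451) and by -1.72 for Cntn4 (adjusted p = 0.0403), where a negative value means that red cells were lower against green cells at E18.5 than at E14.5. In this test 175 genes, or 1.05% of those tested, were called in either direction. The call of Cntn4 was kept in only 1 of the 12 fits that each left out 1 array. The calls of Lrfn5 and Cntn3 stood in all 12. Every red array lay above every green array at E14.5 for the 3 genes. For Lrfn5 and Cntn3 every red array lay below every green array at E18.5. The share of all genes with such a separation was not counted. The E14.5 means of Cntn3 were low, 5.17 in red and 4.80 in green cells, and the green mean lay under the filter level. The cause of the 3 changes between stages was not tested.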

How the results depend on the processing

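Leaving out 1 array at a time gave 1 member called in E18.5 red against green cells in each fit (main 1), 0 in double-labelled against green (main 0), 0 to 1 in double-labelled against red (main 0), 5 to 7 in E14.5 red against green (main 7), 14 to 19 between stages in red (main 18), 24 to 26 between stages in green (main 29) and 2 to 4 in the difference between stages (main 3). With the replicate block 2, 1 and 1 members were called in the 3 comparisons at E18.5 (red against green, double-labelled against green, double-labelled against red) and 8 in the difference between stages; only the red and double-labelled arrays were taken as paired, and the block moved no other count of members by more than 1.5 times. Without the narrow-range arrays these counts were 2, 2, 1 and 9. With quantile normalization 2 members were called in E18.5 red against green and 5 in the difference between stages. With the E18.5 arrays alone 0 were called in red against green. Without centring 32 members were called between stages in red cells. The cause of these changes was not tested, and this holds for the E18.5 arrays alone too, where fewer arrays were fitted. The 66 member differences that were called or had the 3 smallest p kept their sign in all of these alternatives. Of all 252 member differences, 38 turned their sign without the narrow-range arrays, none of them called in either fit. At E14.5 the calls gained were Cntn6 and Cadm3 with the block and with quantile normalization, and these and Ncam1 without the narrow-range arrays and with the E14.5 arrays alone. Over all genes, calls in E14.5 red against green were 586, with 247 to 527 on leaving out 1 array and 520 to 1434 in the other alternatives. In E18.5 red against green they were 102, with 51 to 100 and 12 to 234. They were 6 (0 to 8 and 0 to 35) in double-labelled against green and 15 (7 to 21 and 4 to 39) against red. Between stages red cells had 3861 (2723 to 4060 and 3113 to 12041). Green cells had 5501 (4020 to 4400 and 4264 to 12226). In the difference between stages they were 175 (76 to 214 and 135 to 486). The changed counts of members do not by themselves set the members apart.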
